A study of Mus musculus with 18 samples.

Results

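The enzymes described here are 10 enzymes that make, modify or break down ceramide in mouse liver, chosen by gene symbol: *Sptlc1*, *Sptlc2*, *Cers2*, *Cers4*, *Cers5*, *Cers6*, *Degs1*, *Sgms1*, *Smpd1* and *Asah1*. All 10 were found, with 1 entry each, among 23352 gene symbols. Liver RNA was sequenced from 18 male C57BL6 mice aged 20 weeks and fed a high-fat diet (HFD), 9 wild-type (WT) and 9 *Gpr180*KO, with 1 library per mouse. *Gpr180*KO mice carried, in all cells, a Cas9 deletion of an exon of the G protein-coupled receptor 180 gene, made in fertilized C57BL/6J eggs with guides in the introns on both sides. The deletion shifts the reading frame, leaves a truncated mRNA and was not limited to any liver cell type. Control WT mice came from matings of the same heterozygous, backcrossed line, and both groups shared the diet. The comparison asks which of these enzymes differ in mRNA level between the genotypes. The annotation places genes on the opposite strand within *Sptlc2*, *Cers2*, *Cers4*, *Cers5* and *Sgms1*. Whether the counting used strand is not stated, so reads from such partners cannot be told apart there. Annotated genes on the same strand also overlap *Cers6* and *Sgms1*, where strand could not separate the reads. Values are FPKM (fragments per kilobase of transcript scaled to the mapped reads of the library), so levels can be compared between genes per length.

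Ceramide is the hub of sphingolipid metabolism. Serine palmitoyltransferase joins serine to palmitoyl-CoA, and its product is reduced, acylated by a ceramide synthase and desaturated to give ceramide. In the liver ceramide is turned into sphingomyelin or glycosphingolipids or is cleaved to sphingosine, and ceramides of certain chain lengths are known from work on fatty liver and insulin resistance. Ceramide synthases differ in the acyl chain lengths they prefer, although some share a preference.

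Promoter sequences of 9 of the 10 enzymes were read from RefSeq windows on GRCm38.p6, each running from 250 bases before to 50 bases after a start of transcription, 13 windows in all. They were searched on both strands for CACGTG, an E-box letter pattern bound by several basic helix-loop-helix factors including sterol regulatory element-binding proteins (SREBP), and for TCACNCCAC, a sterol-response-like pattern. The 3 windows that hold CACGTG are shown because they belong to the highest and second highest enzymes of the group and to *Cers6*. Capitals mark the CACGTG match and each line is read 5′ to 3′ on the gene's own strand:
Cers2, chr3:95315044-95315083, + strand: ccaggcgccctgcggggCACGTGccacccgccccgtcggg
Degs1, chr1:182282216-182282255, - strand: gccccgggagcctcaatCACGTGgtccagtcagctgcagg
Cers6, chr2:68861402-68861441, + strand: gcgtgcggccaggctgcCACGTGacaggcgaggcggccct
The match began 129 bases before the start in *Cers2*, 43 before it in *Degs1* and 22 before it in *Cers6*. CACGTG was present in 7.15% of all 32851 windows and TCACNCCAC in 1.24%, the latter in 0 of the 13 windows of these enzymes. The windows of *Sptlc2*, *Sptlc1*, *Cers4*, *Cers5*, *Sgms1* and *Smpd1* held neither pattern. *Asah1* had no window and was not searched. A match is a description of these letters and no evidence of binding.

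*Gpr180* itself was measured first as a check of the labels. Its level was 6.79 ± 1.99 FPKM in WT (SD, n = 9, range 4.46 to 9.24) and 1.6 ± 0.371 FPKM in *Gpr180*KO (SD, n = 9, range 0.876 to 1.99), so the groups did not overlap. Its log2 fold change was -2.0 (limma, SE 0.18, adjusted p = 4.74e-06). The FPKM sums of the libraries ran from 503229 to 718624, with the highest in the *Gpr180*KO library titled KOhfd51. Relative depth, estimated from low genes, was 60.3 to 100% of the deepest library in WT and 44.1 to 93.3% in *Gpr180*KO. KOhfd51 stood apart from the rest, with a median correlation to the other libraries of 0.9201 against 0.9484 to 0.9634 for the others, so results that rest on it are given with and without it. Mice carry 2 styles of title, 4 per genotype such as W317HFD and KO319HFD, and 5 per genotype such as WThfd131 and KOhfd51, and what separates the styles is not stated.

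Of the 10 enzymes, *Cers4* had a mean below 1 FPKM and 9 were tested. *Asah1*, the lysosomal acid ceramidase, and *Sptlc2*, a catalytic subunit of serine palmitoyltransferase, fell in *Gpr180*KO livers, and no enzyme rose. These 2 of 9 were called at an adjusted p of 0.05 (limma on log2(FPKM + 0.1), Benjamini-Hochberg over 10835 genes), where 4.28% of all tested genes were called lower and 0.452% higher. Over the 9 enzymes the median log2 fold change was -0.26, beside -0.13 over all tested genes. Without KOhfd51 these medians were -0.15 and -0.10. With all libraries included, 5 of the 9 lay lower than the median gene at -0.13 and 4 higher. After median-of-ratios scaling, which moved the median of all genes to -0.01, 1.58% of genes were called lower and 1.03% higher, and *Asah1* alone of the 9 was called. With that scaling and the style of title as a block, *Asah1* and *Sptlc2* were both called (limma adjusted p = 0.0158 and 0.0274).

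**Figure D1:**
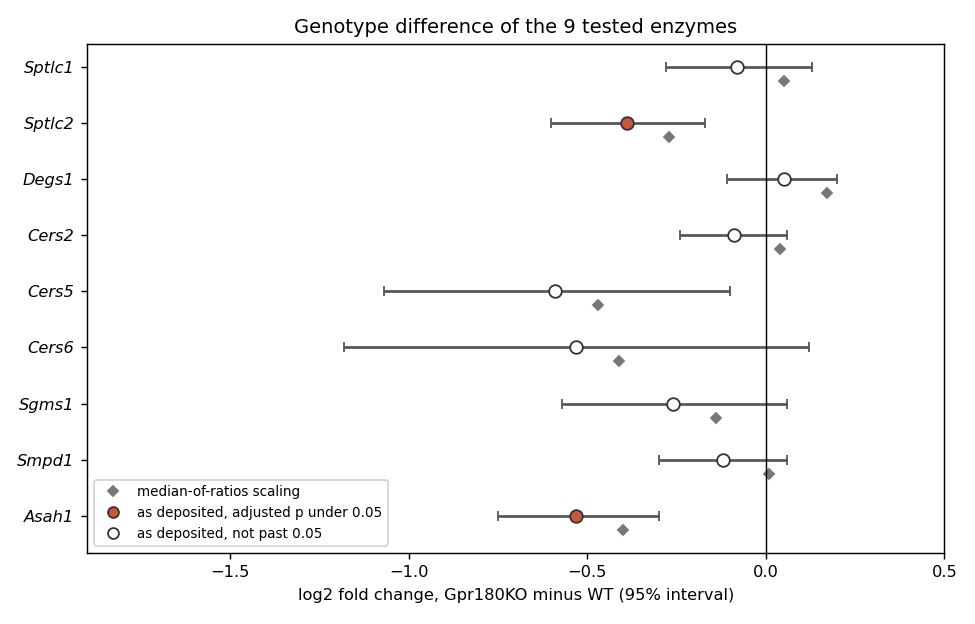
Log2 fold change of the 9 tested enzymes, *Gpr180*KO minus WT, on the horizontal axis, with circles for the FPKM as deposited, bars for 95% intervals and diamonds for median-of-ratios scaling. The intervals of *Sptlc2* (-0.60 to -0.17), *Cers5* (-1.07 to -0.10) and *Asah1* (-0.75 to -0.30) lie below 0, and *Sptlc2* and *Asah1* have filled circles because they passed the adjusted threshold.

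The first step of the pathway is carried out by serine palmitoyltransferase, in which the Sptlc1 protein pairs with the catalytic Sptlc2 protein. *Sptlc2* (chr12:87305058-87388355 on GRCm38, - strand, 12 exons in the transcript with the longest coding sequence) measured 4.77, 6.83 and 7.95 FPKM as the lowest, median and highest WT mouse. In *Gpr180*KO mice the same points were 3.96, 4.93 and 6.05 FPKM. Thus 9 of 9 *Gpr180*KO mice lay below the WT mean, while 2 lay below the lowest WT mouse, WThfd157, so the ranges overlapped. Mean levels were 6.69 ± 1.02 and 5.08 ± 0.684 FPKM (SD, n = 9 each), which put *Gpr180*KO at 75.9% of WT, and the log2 fold change was -0.39 (limma, SE 0.10, adjusted p = 0.0373). It was lost with median-of-ratios scaling (-0.27, limma adjusted p = 0.0863) and called with that scaling and the title style as a block (-0.27, adjusted p = 0.0274). Within the styles of titles the log2 fold changes were -0.37 and -0.40.

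*Sptlc1* (chr13:53332748-53377397, - strand), the partner subunit, ran from 8.98 to 14.6 FPKM in WT (median 11.7) and from 8.48 to 12.8 FPKM in *Gpr180*KO (median 11.2). The ranges overlapped over most of their length. Its log2 fold change was -0.08 (limma, 95% interval -0.28 to 0.13, adjusted p = 0.648) and turned to 0.05 with median-of-ratios scaling. Because both subunits were read in the same library, their ratio does not depend on the scaling of a library. The *Sptlc2* to *Sptlc1* FPKM ratio was 0.573 ± 0.0516 in WT (range 0.531 to 0.662) and 0.461 ± 0.0545 in *Gpr180*KO (range 0.371 to 0.565, SD, n = 9 each). It was lower than in every WT mouse in 8 of 9 *Gpr180*KO mice, the exception being KOhfd51 at 0.565. The log2 difference of the ratio was -0.32 in all mice, -0.35 without KOhfd51, and -0.24 and -0.38 within the title styles. No test was run on a ratio.

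**Figure D2:**
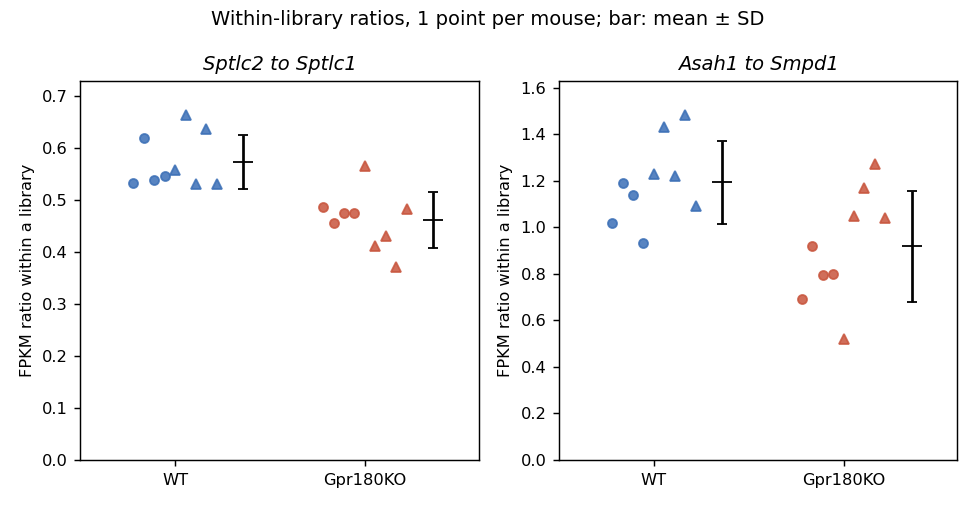
Ratio of FPKM values within a library on the vertical axes, for *Sptlc2* to *Sptlc1* and *Asah1* to *Smpd1*, with 1 point per mouse, circles and triangles for the first and second style of title and black bars for the mean ± SD (n = 9). Among the circles, the 4 *Gpr180*KO mice lie between 0.456 and 0.486 for the first ratio, all below the 4 WT mice at 0.533 to 0.619.

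Ceramide synthases attach the acyl chain, and *Cers2* (chr3:95314791-95323599, + strand), which prefers very long chains, was by far the most abundant of the 4. Its level was 137, 181 and 199 FPKM in the lowest, median and highest WT mouse and 151, 165 and 182 FPKM in *Gpr180*KO. *Gpr180*KO values were all within the WT range, and 8 of 9 lay below the WT mean. Means of 179 ± 19.1 and 168 ± 10.2 FPKM (SD, n = 9 each) gave a log2 fold change of -0.09 (limma, 95% interval -0.24 to 0.06, adjusted p = 0.485), which turned to 0.04 with median-of-ratios scaling. *Cers2* made up 97.1 ± 0.598% of the summed FPKM of *Cers2*, *Cers4*, *Cers5* and *Cers6* in WT and 97.7 ± 0.607% in *Gpr180*KO. The other three, which prefer long chains, therefore shared a small part of the ceramide synthase mRNA.

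*Cers5* (chr15:99734881-99772885, - strand), which prefers palmitoyl chains, measured 0.726, 1.70 and 2.19 FPKM in WT as lowest, median and highest. In *Gpr180*KO those points were 0.362, 0.993 and 1.61 FPKM. Every *Gpr180*KO mouse was below the WT median, but WThfd157 and W319HFD at 0.726 and 0.977 FPKM were low too and the ranges overlapped. Its log2 fold change of -0.59 had an unadjusted p of 0.0197 and an adjusted p of 0.143 (limma, SE 0.23), short of the threshold. The interval printed with the FPKM was wide here, with a median half-width of 33.6% of the value.

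*Cers6* (chr2:68861441-69114282, + strand), also a palmitoyl-preferring synthase, ran from 2.04 to 4.26 FPKM in WT (median 2.92) and from 0.322 to 3.61 FPKM in *Gpr180*KO (median 2.35). The lowest value belonged to KOhfd51, and the other 8 *Gpr180*KO mice lay between 1.73 and 3.61. The log2 fold change was -0.53 (limma, 95% interval -1.18 to 0.12, adjusted p = 0.325) and -0.23 without KOhfd51 (adjusted p = 0.413), so 1 library set most of the size. *Cers4* (chr8:4493026-4531680, + strand), another member of the family, was at 0.475 to 0.909 FPKM in WT (median 0.678) and 0.314 to 0.810 FPKM in *Gpr180*KO (median 0.586). The means were 0.688 ± 0.159 and 0.572 ± 0.180 FPKM, and the difference of the mean log2(FPKM + 0.1), -0.25, had an exact two-sided permutation p of 0.147 over 48620 splits.

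*Degs1* (chr1:182275772-182282804, - strand), the desaturase that completes ceramide, was the second most abundant enzyme of the group. It was tightly held in WT, at 44.7, 48.1 and 50.04 FPKM as lowest, median and highest, and wider in *Gpr180*KO, at 42.1, 48.3 and 62.0 FPKM. KOhfd54 and KOhfd56 were the high mice, at 58.6 and 62.0 FPKM, and KOhfd51 the low one. The log2 fold change was 0.05 (limma, 95% interval -0.11 to 0.20, adjusted p = 0.726), and it was -0.02 among the mice of the first title style alone. The larger spread in *Gpr180*KO, an SD of 6.78 against 1.93 FPKM, was not tested.

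Sphingomyelin is made from ceramide in the Golgi by the *Sgms1* product (chr19:32122727-32389714, - strand) and returned to ceramide in the lysosome by the acid sphingomyelinase *Smpd1* (chr7:105554360-105558389, + strand). *Sgms1* ran from 3.53 to 6.24 FPKM in WT (median 4.78) and from 2.13 to 5.28 FPKM in *Gpr180*KO (median 4.07), with KOhfd51 lowest. Its log2 fold change was -0.26 (limma, 95% interval -0.57 to 0.06, adjusted p = 0.323) and -0.15 without KOhfd51. *Smpd1* ran from 19 to 23.7 FPKM in WT (median 20.1) and from 15.2 to 22.9 FPKM in *Gpr180*KO (median 19.5). Its log2 fold change was -0.12 (limma, 95% interval -0.30 to 0.06, adjusted p = 0.427) and 0.01 with median-of-ratios scaling. The *Sgms1* to *Smpd1* ratio was 0.231 ± 0.0444 in WT and 0.213 ± 0.0528 in *Gpr180*KO, a log2 difference of -0.15 that came to -0.02 without KOhfd51.

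*Asah1* (chr8:41340197-41374773, - strand, 14 exons in the transcript with the longest coding sequence) encodes acid ceramidase, which cleaves ceramide to sphingosine and a fatty acid in the lysosome. WT mice measured 20.8, 24.1 and 31.2 FPKM as lowest, median and highest, and *Gpr180*KO mice 11, 17.6 and 21.1 FPKM. Only KOhfd54, at 21.1 FPKM, exceeded the lowest WT mouse, and the other 8 *Gpr180*KO mice lay below all WT mice. The means of 24.6 ± 3.28 and 17.2 ± 2.89 FPKM (SD, n = 9 each) put *Gpr180*KO at 69.7% of WT, with a log2 fold change of -0.53 (limma, SE 0.11, adjusted p = 0.0154), the 59th smallest p of all tested genes. The lowest value was that of KOhfd51, without which the log2 fold change was -0.45 (adjusted p = 0.00948). *Asah1* was called with median-of-ratios scaling as well (-0.40, limma adjusted p = 0.0356). Its log2 fold changes within the title styles were -0.47 and -0.57, the latter with the low KOhfd51 included.

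Against the sphingomyelinase of the same compartment, *Asah1* was lower too. The *Asah1* to *Smpd1* FPKM ratio was 1.19 ± 0.177 in WT (range 0.934 to 1.48) and 0.916 ± 0.239 in *Gpr180*KO (range 0.518 to 1.27, SD, n = 9 each). It was below the lowest WT mouse in 5 of 9 *Gpr180*KO mice. These were KOhfd51 at 0.518 and the *Gpr180*KO mice of the first title style, at 0.691 to 0.92. The other *Gpr180*KO mice of the second style, at 1.04 to 1.27, lay within the range of all WT mice. The log2 difference was -0.41 with KOhfd51 and -0.32 without it. Within the title styles it was -0.42 and -0.41, the latter with KOhfd51 included and not computed without it. In the second style the WT mice ran from 1.09 to 1.48, beside 1.04 to 1.27 in *Gpr180*KO mice other than KOhfd51.

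**Figure D3:**
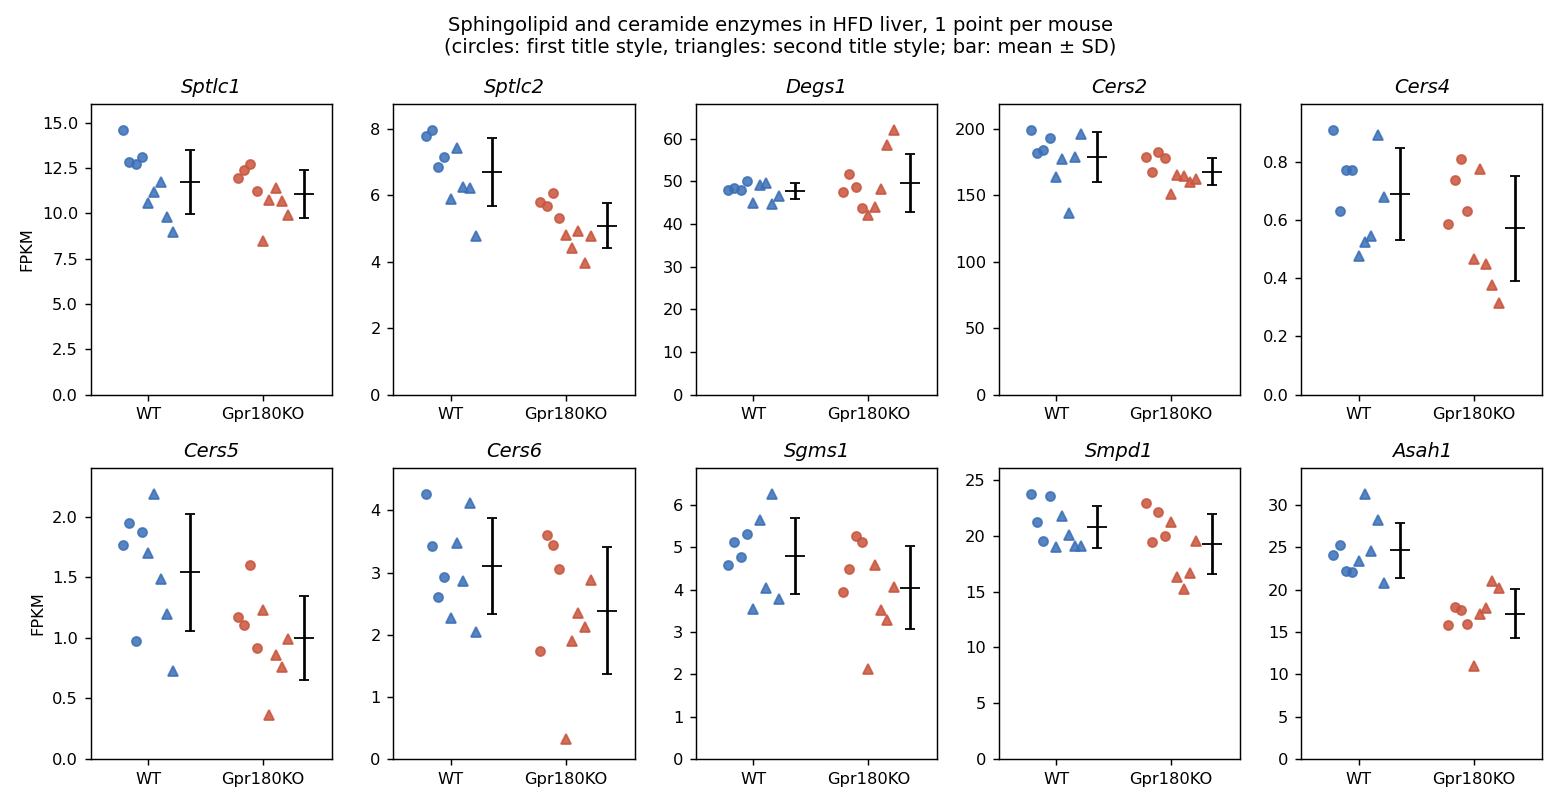
FPKM of the 10 enzymes on the vertical axes, each starting at 0, with 1 point per mouse, WT in blue and *Gpr180*KO in red, circles and triangles for the 2 title styles and black bars for the mean ± SD (n = 9). In the *Asah1* panel 8 of 9 *Gpr180*KO points lie below all WT points, in the *Sptlc2* panel 2 of 9 do, and the single low triangle of *Cers6* is KOhfd51 at 0.322.

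Liver tissue is a mixture, and in bulk RNA fewer cells of a type and less RNA per cell cannot be told apart. *Asah1* and *Smpd1* are lysosomal genes that macrophages use as well as hepatocytes. Of 12 macrophage markers tested 4 were called lower in *Gpr180*KO (*Cd68*, *Cd14*, *Gpnmb* and *Trem2*), of which *Cd68* and *Trem2* were called with median-of-ratios scaling. *Gpnmb* and *Trem2* had *Gpr180*KO means of 0.476 and 0.825 FPKM and reached the minimum of 1 FPKM through the WT mice. *Clec4f* and *Timd4* went the other way, each at a log2 fold change of 0.16 (limma adjusted p = 0.573 and 0.676). The rest were negative and not called. The macrophage list summed to 188 to 502 FPKM in WT and 224 to 323 FPKM in *Gpr180*KO. Over all tested genes 4.28% were called lower. Stellate cell and fibroblast markers were called lower in 6 of 10, also 6 with median-of-ratios scaling, among them *Col1a1* and *Col3a1* at log2 fold changes of -1.99 and -1.73, with sums of 147 to 300 and 83.1 to 150 FPKM. Both tested biliary markers, *Sox9* and *Spp1*, were called lower, *Sox9* no longer with median-of-ratios scaling (limma adjusted p = 0.121). *Sox9* was low, with means of 1.44 FPKM in WT and 0.859 FPKM in *Gpr180*KO. The 5 listed markers summed to 40.8 to 226 FPKM in WT and 17.4 to 51.0 FPKM in *Gpr180*KO. Most of that sum was *Spp1*, at 36.8 to 223 FPKM in WT and 14.9 to 47.7 FPKM in *Gpr180*KO. None of 8 endothelial and 9 tested hepatocyte markers was called, with 0 and 1 at an unadjusted p under 0.05 in limma and 0 called with median-of-ratios scaling, and sums of 94.3 to 150 against 82.2 to 132 FPKM and of 18600 to 23000 against 20800 to 33800 FPKM. The 9 lymphocyte markers were too low to test, with sums of at most 7.15 FPKM, and no marker of any list was at 0 in every mouse. The part of these markers in the *Asah1* and *Sptlc2* results was not tested.

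With the style of title as a block, *Sptlc2* and *Asah1* were again the 2 enzymes called lower, where 9.52% of all tested genes were called lower and 1.13% higher. Among the 8 mice of the first style both were called too (adjusted p = 0.0252 and 0.0143 in limma), at a background of 5.29% lower. Among the 10 mice of the second style neither was (adjusted p = 0.171 and 0.154), with 0.00932% of genes called lower and unadjusted p of 0.0118 and 0.00884. A test of the difference between the styles called 0.0% of genes, with 833 of 10835 at an unadjusted p under 0.05 and 0 called after median-of-ratios scaling. For the 9 enzymes its adjusted p lay between 0.812 and 0.974, and 0 of them had an unadjusted p under 0.05. Without KOhfd51 the 2 enzymes were called (adjusted p = 0.0379 for *Sptlc2* in limma), at a background of 6.46% lower.

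The call of *Sptlc2* was near its threshold. It was called in 8 of the 18 fits that omit a single library, with log2 fold changes of -0.45 to -0.34 and limma adjusted p of 0.00784 to 0.0843. The libraries without which it was lost were W317HFD, W318HFD, W319HFD, W320HFD, WThfd133, WThfd156, KOhfd52, KOhfd53, KOhfd54 and KOhfd56. *Asah1* was called in all 18 such fits, at log2 fold changes of -0.57 to -0.45 and limma adjusted p of 0.00581 to 0.0384.

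**Figure D4:**
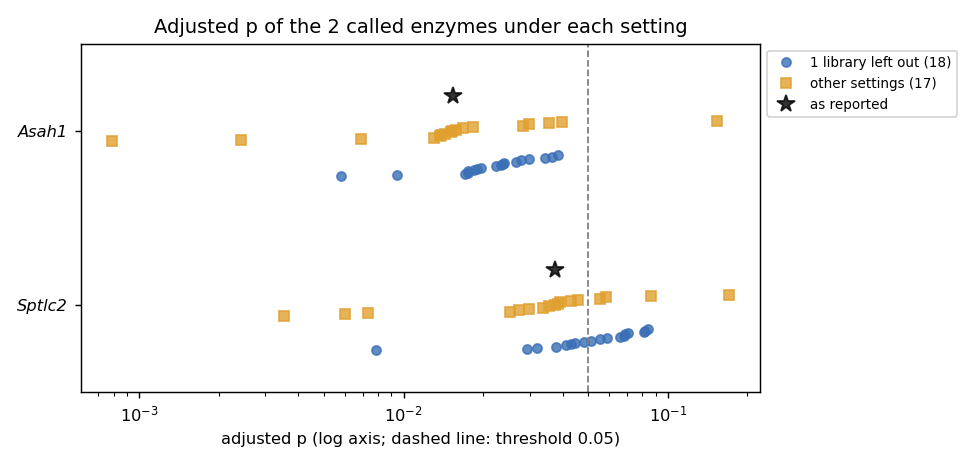
Adjusted p of *Sptlc2* and *Asah1* (limma, log axis), with a star for the value reported, a circle for each of the 18 fits without 1 library and a square for each of 17 other settings, and a dashed line at the threshold of 0.05. All circles of *Asah1* lie left of the line, whereas 10 of the 18 circles of *Sptlc2* lie right of it.

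The order of the levels, taken over all 18 mice, was *Cers2* (173 FPKM), *Degs1* (48.7), *Asah1* (20.9), *Smpd1* (20.0), *Sptlc1* (11.4), *Sptlc2* (5.89), *Sgms1* (4.41), *Cers6* (2.75), *Cers5* (1.27) and *Cers4* (0.630). *Cers2* exceeded *Degs1* in 18 of 18 mice. The neighbours *Asah1* and *Smpd1* could not be ordered: *Asah1* was the higher in 8 of 9 WT mice but in 4 of 9 *Gpr180*KO mice. *Sptlc2* was above *Sgms1* in 16 of 18 mice, *Cers6* above *Cers5* in 17 and *Cers5* above *Cers4* in 17, with overlapping ranges in each pair. Within a genotype the coefficient of variation was lowest for *Degs1* in WT (4.05%) and *Cers2* in *Gpr180*KO (6.06%). It was highest for *Cers5* in WT (31.4%) and *Cers6* in *Gpr180*KO (42.8%), the latter with KOhfd51 included.

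Whether pairs of enzymes varied together from mouse to mouse was examined in 6 pairs, on log2 FPKM as deviations from the mean of each genotype and title style (n = 18). None passed after adjustment over the 6 (permutation p with 100000 resamples, adjusted p of Pearson's r between 0.462 and 0.722). *Sptlc1* with *Sptlc2* had r = 0.41 and rho = 0.40 (permutation p = 0.0885 and 0.0974), and r = 0.36 without the 2 mice farthest from the median of *Sptlc1*, with 0.63 and 0.37 within the title styles. After median-of-ratios scaling its r was 0.08, and without KOhfd51 it was 0.58. *Cers2* with *Cers4* had r = 0.33 and rho = 0.48 (permutation p = 0.174 and 0.044, adjusted 0.462 and 0.264), r = 0.39 without 2 mice and r = 0.45 after median-of-ratios scaling. *Smpd1* with *Asah1* had r = -0.26 and rho = -0.08 (permutation p = 0.304 and 0.764), r = -0.57 after median-of-ratios scaling (permutation p = 0.02, adjusted 0.12) and r = 0.19 without KOhfd51, so its sign rests on that mouse in the deposited FPKM.

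Beyond these enzymes, 61 other genes of the pathway were listed by role, and 43 reached the level to be tested. Of them 5 fell in *Gpr180*KO and 0 rose (limma, with 16 of 43 at an unadjusted p under 0.05, where 22.2% of all tested genes were), beside the 4.28% of all genes called lower, and with median-of-ratios scaling 2 fell, *Smpd3* and *Hexa*. Their median log2 fold change was -0.16.

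Genes that break down glycosphingolipids held 1 of the 5, out of 10 tested. The log2 fold change was negative in all 10 with the deposited FPKM, as it was in 76.9% of all tested genes. With median-of-ratios scaling it was negative in 7 of 10, beside 51.1% of all tested genes. *Hexa*, the alpha subunit of the lysosomal beta-hexosaminidase, ran from 36.3 to 54.3 FPKM in WT (median 45.1) and from 21.4 to 38.5 FPKM in *Gpr180*KO (median 32.1), with 7 of 9 *Gpr180*KO mice below the lowest WT mouse. Its log2 fold change was -0.53 (limma, SE 0.11, adjusted p = 0.0159), and it was called in 18 of 18 fits without 1 library. *Psap*, which encodes the saposins and was the highest of this role, had a log2 fold change of -0.24 (limma adjusted p = 0.390).

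*Smpd3*, a neutral sphingomyelinase, had the lowest fold change among the called pathway genes. Its mean was 2.54 FPKM in WT and 0.891 FPKM in *Gpr180*KO, so it reached the minimum of 1 FPKM through the WT mice. It ran from 0.653 to 5.59 FPKM in WT (median 2.42) and from 0.363 to 1.68 FPKM in *Gpr180*KO (median 0.848), and 9 of 9 *Gpr180*KO mice were below the WT mean while 4 were below the lowest WT mouse. The log2 fold change was -1.40 (limma, SE 0.34, adjusted p = 0.0277). Among the 3 tested ceramidases other than *Asah1*, none was called in limma, although all 3 had an unadjusted p under 0.05 (0 called with median-of-ratios scaling). *Asah2*, the neutral ceramidase and the highest of them, was at 6.91 ± 1.11 and 4.89 ± 1.33 FPKM (log2 fold change -0.56, limma adjusted p = 0.108).

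The remaining called genes were spread over other roles. *Cerk*, ceramide kinase, had means of 1.82 and 1.22 FPKM (log2 fold change -0.53, limma adjusted p = 0.0379). *B4galt5*, a lactosylceramide synthase, was at 9.63 and 7.22 FPKM (-0.42, limma adjusted p = 0.0392). *Plpp2*, a lipid phosphate phosphatase listed in the files under its older symbol *Ppap2c*, was at 10.5 and 6.92 FPKM (-0.58, limma adjusted p = 0.0289). Leaving out 1 library at a time, *Smpd3* was called in 13, *Plpp2* in 11, *Cerk* in 6 and *B4galt5* in 5 of 18 fits. The libraries W317HFD, W318HFD, WThfd133, KOhfd53 and KOhfd54 were each needed for all 4 of these calls.

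Among genes that regulate or follow serine palmitoyltransferase, none of 4 tested regulators was called (0 of 4 also at an unadjusted p under 0.05 and with median-of-ratios scaling). *Ormdl3*, which encodes an inhibitor of the enzyme and was the highest of them, had means of 61.0 and 63.9 FPKM (log2 fold change 0.05, limma adjusted p = 0.807). *Kdsr*, the reductase of the next step, had a log2 fold change of -0.30 (limma adjusted p = 0.151). The highest gene of each other role was not called either. Log2 fold changes were -0.04 for *Sgms2*, the second sphingomyelin synthase, 0.00 for the sphingomyelinase *Smpd2*, -0.14 for *Aldh3a2*, a fatty aldehyde dehydrogenase, and -0.13 for *St3gal5*, the GM3 synthase. *Apom*, the sphingosine 1-phosphate carrier of plasma lipoproteins, had medians of 192 and 230 FPKM, with 1 *Gpr180*KO mouse at 470 FPKM (log2 fold change 0.32, limma adjusted p = 0.181). Its log2 fold changes within the title styles were 0.06 and 0.53.

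**Figure D5:**
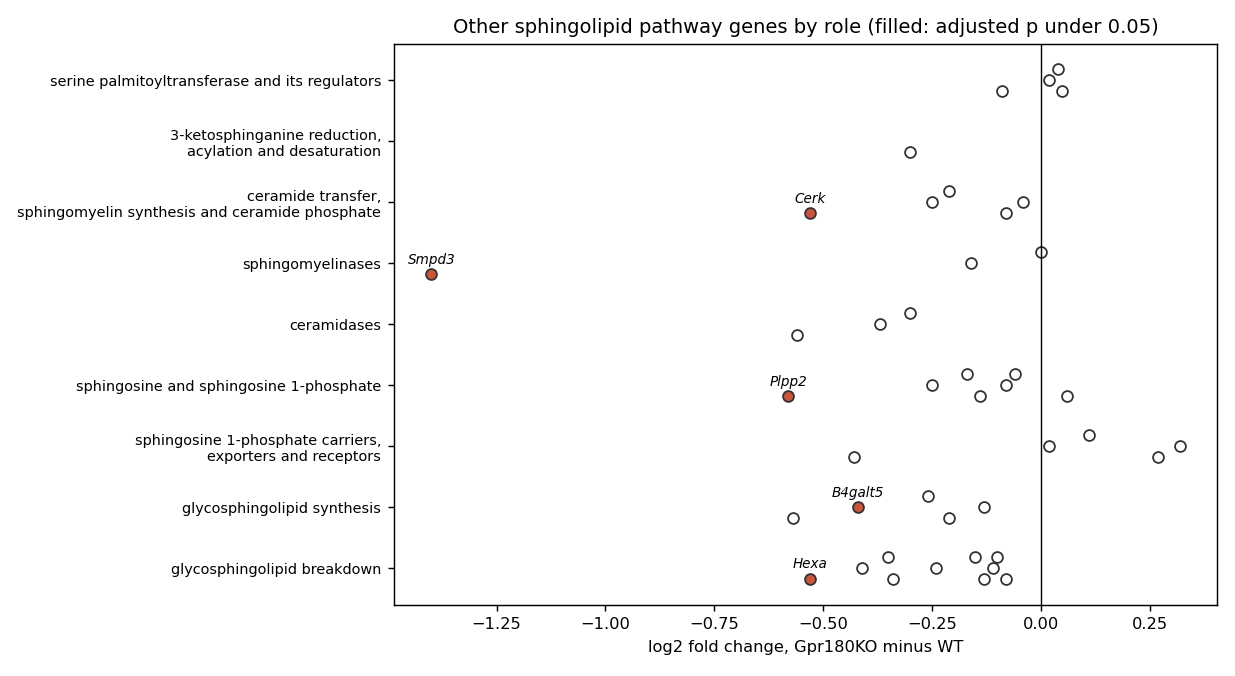
Log2 fold change, *Gpr180*KO minus WT, on the horizontal axis, for the 43 tested pathway genes other than the 10 enzymes, in rows by role, with 1 circle per gene and filled circles for an adjusted p under 0.05. The 5 filled circles all lie below 0, from *Smpd3* at -1.40 to *B4galt5* at -0.42, and none lies in the row of serine palmitoyltransferase regulators.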

How the data were processed

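Liver libraries of 18 mice were compared. The authors made poly(A) TruSeq libraries, mapped them as single reads on mm10 (TopHat Alignment application), and deposited 1 table of FPKM per mouse with an interval for each value. The paper's methods give FPKM as output of that application, and the program inside it that computed FPKM and its annotation are not given in the sources used here. FPKM holds no counts, so the absolute depth of each library is unknown beyond the approximate range of reads per sample in the paper. Count tests were not used. Each table has 23847 entries. FPKM of entries sharing a symbol was summed, and 24 symbols with any value marked as failed or overfull (190 values, all at 0) were left out, *Alb* among them. For the 10 enzymes, 34 of 180 values (18 of *Cers2* and 16 of *Degs1*) lay outside the printed interval, which was used for no test.

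Groups came from the genotype label. Log2(FPKM + 0.1) was fitted with limma 3.58.1 in R 4.3.3 (lmFit, eBayes with trend) over 10835 symbols whose mean FPKM reached 1, and p-values were adjusted by Benjamini-Hochberg and read at 0.05. *Cers4* was tested by permutation of mice between the genotypes (scipy 1.17.1). For the pairs, the deviations of 1 enzyme were permuted over all 18 mice (numpy 2.4.6). Low-gene FPKM ratios gave relative depth. Gene positions came from GENCODE on GRCm38. Older symbols were matched through RefSeq synonyms. Alternatives changed the pseudocount, minimum, scaling, block, weights and libraries, and the settings that combine a block or scaling with leaving out KOhfd51 were chosen after seeing the data. The fit was tested on simulated data. The enzymes and gene lists were chosen with earlier results of these data known. Named were all 10 enzymes and *Gpr180*, called pathway genes, the highest pathway gene of each role, and up to 4 called markers per list. The macrophage markers with a positive log2 fold change were named as well. A listed pathway gene is not reported here and is in none of the pathway counts.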

Additional observations from a re-analysis of the deposited data

Results flagged for a closer look

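KOhfd51 lay far from the rest of its group in 2 of the 10 enzymes. *Cers6* was at 0.322 FPKM in that mouse against 1.73 to 3.61 FPKM in the other 8 *Gpr180*KO mice. On the log2 scale, used for both enzymes, the gap was 0.676 of the range of the group. *Asah1* was at 11 FPKM against 15.8 to 21.1 FPKM, a gap of 0.559 of the range on the log2 scale. In all, 22 groups of 9 mice were examined, the 10 enzymes and *Gpr180* in each genotype, and chance marks about 1 in 20 of such groups. In the same mouse the summed hepatocyte markers were the highest of all mice, at 33800 FPKM, and its FPKM sum was 718624. The part of these values in its low *Cers6* and *Asah1* was not tested.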

How the results depend on the processing

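The log2 fold change of *Gpr180* kept its direction and its call in all alternatives, and *Asah1* in 34 of 35. The number of enzymes called lower was 1 with median-of-ratios scaling, with 75th percentile scaling and with median-of-ratios scaling without KOhfd51, 2 with the block and median-of-ratios scaling, 0 with the second title style alone, and 1 to 2 when 1 library was left out. For the other pathway genes called lower it was 3 with a minimum mean of 5 FPKM, which tests fewer genes, 2 with median-of-ratios scaling, 3 with 75th percentile scaling, 9 both with library weights and with the title style as a block, 3 with the block and median-of-ratios scaling, 0 with the second title style alone, 14 with the block without KOhfd51, 3 with median-of-ratios scaling without KOhfd51, and 1 to 7 when 1 library was left out. It fell to 3 or fewer without W317HFD, W318HFD, W319HFD, W320HFD, WThfd133, WThfd134, KO322HFD, KOhfd52, KOhfd53 or KOhfd54. The cause was not tested. The share of all tested genes called lower moved as well. Beside 4.28% as reported, it was 1.58% with median-of-ratios scaling and 9.52% with the block. It was 0.00932% with the second title style alone and 6.46% without KOhfd51. For the other settings this share is not given, so the counts there cannot be told from a change over all genes.

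Directions turned for *Sptlc1* (0.05 with median-of-ratios scaling, 0.02 with 75th percentile scaling, 0.05 with block and median-of-ratios, 0.07 with median-of-ratios without KOhfd51), *Cers2* (0.04, 0.01, 0.04 and 0.04 under the same settings), *Smpd1* (0.01 with median-of-ratios with and without the block) and *Degs1* (-0.02 with the first title style alone). Pearson's r of *Cers2* with *Cers6* went from 0.18 to -0.09 with median-of-ratios scaling, and the *Cers6* to *Cers2* log2 difference from -0.49 to -0.09 with the first title style alone and to -0.17 without KOhfd51. The median log2 fold change of the tested enzymes, -0.26, was -0.15 without KOhfd51, -0.14 and -0.40 within the title styles and -0.10 with library weights. *Cers5* was called with the block without KOhfd51 (-0.65, limma adjusted p = 0.0474). Since counts are not known, the low FPKM of *Cers4* and *Cers5* limits what can be seen there, and p-values measure the spread between single livers.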
